A study of Mus musculus with 16 samples.

Results

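The genes described here are 40 genes of the cell cycle and of DNA replication, listed by name for what they are known to do. No measured value enters the rule, but the list was drawn up with earlier results of these arrays known. They comprise 22 genes of mitosis, 12 genes of DNA replication and 6 genes of G1 and of entry into S phase. A gene was read from the probe sets that the platform annotation assigns to exactly 1 symbol, taking the probe set with the highest mean, which gave values for 39 of the 40 genes out of 19272 genes measured in this way. Ccnb1 has no such probe set and is not analysed here. Of the 39 genes, 35 passed the filter on dim values (at least 4 of the 16 arrays above 6.83, the median of all log2 values) and were tested among 10236 genes. Cenpf, Cdc6, Gins1 and Ccne2 did not pass it.

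Marrow of C57BL/6 mice was cultured into dendritic cells in 10 ng/mL GM-CSF, a cytokine that drives precursors to divide and to become myeloid cells. 4 groups of 4 Affymetrix Mouse Gene 1.0 ST arrays were compared, and the same 4 mice gave cells to each group, so replicates are separate mice. The group 450 mOsm with LPS was kept from day 3 in medium brought to 450 mOsm/L with added NaCl, collected on day 7 and plated for 6 h with 10 ng/mL LPS, a bacterial cell wall component sensed by Tlr4. The group 290 mOsm with LPS had normal medium of 290 mOsm/L and the same LPS, the group 450 mOsm had the salt medium without LPS, and the group 290 mOsm had neither. Values are log2 expression after RMA, and levels of different probe sets cannot be set against each other, so only differences between groups are read. Differences are log2 changes with the standard error of limma, a linear model for arrays, and a gene was called where the Benjamini-Hochberg adjusted p over all 10236 genes lay under 0.05.

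A dividing cell copies its DNA in S phase and separates the copies in mitosis, and the genes for these steps are switched on in order. D-type cyclins with Cdk4 and Cdk6, and then E-type cyclins with Cdk2, inactivate the Rb protein in G1, which frees E2F factors to switch on the replication genes. The mitosis genes come on later, in S and G2, when the repressive DREAM complex has given way to B-Myb and FoxM1 at a promoter element called CHR (cell cycle genes homology region). Precursors in GM-CSF marrow cultures divide, and maturing dendritic cells largely leave the cycle.

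The promoters of both sets were read for these elements, because most tested members of each set fell with LPS in the results below. A promoter window of 300 bases, from 250 before to 50 after the start of a gene (RefSeq, build GRCm38.p6), was given for 31 of the 40 genes. The letters searched on both strands were TTTGAA for CHR, any of TTTCCCGC, TTTCGCGC, TTTGCCGC and TTTGGCGC for E2F, and CCAAT for the CCAAT box. CHR letters stood in 13 of 18 mitosis genes (72.2%), in 1 of 10 replication genes (10.0%) and in 20.2% of all 27025 genes with windows. E2F letters stood in 1 of 18 mitosis genes (5.56%), in 5 of 10 replication genes (50.0%) and in 2.605% of all genes. The CCAAT box was in 16 of 18 mitosis genes (88.9%), 8 of 10 replication genes (80.0%) and 41.1% of all genes. A match is a string of letters and not a site shown to be bound.

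**Figure D1:**
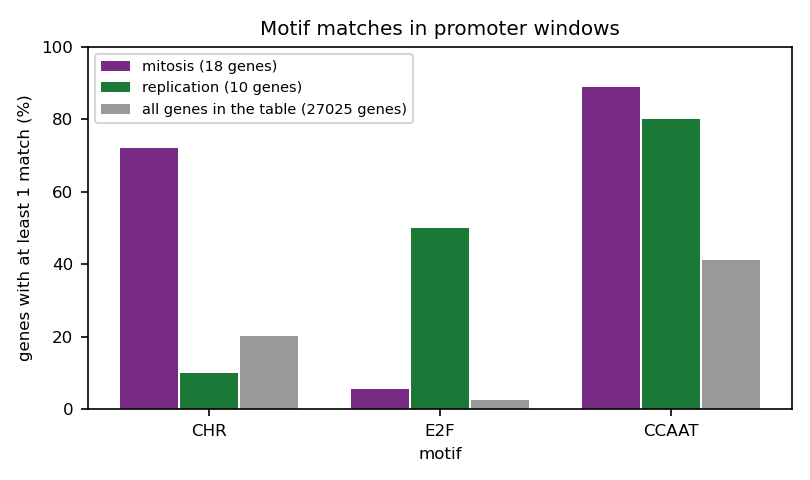
Share of genes (vertical axis, percent) with at least 1 match to the CHR, E2F and CCAAT letters in the 300-base promoter window, for 18 mitosis genes, 10 replication genes and all 27025 genes of the table. CHR matches stood in 72.2% of the mitosis genes and 10.0% of the replication genes, and E2F matches in 5.56% and 50.0%.

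The 150 bases before the start of 4 genes show the elements. Kif11 and Top2a are mitosis genes whose fall with LPS was larger at 450 mOsm (for Top2a on 1 of its 2 probe sets). Mcm5 and Mcm6 are replication genes for which no such difference was called. With LPS Mcm5 fell, and Mcm6 was not called at either osmolarity. Kif11 and Top2a were picked among genes called for such a difference, and all 4 for holding CHR or E2F letters in this stretch. CHR letters also stood in mitosis genes without such a call, for example Cdk1, and were absent from Cenpe, which had one. Rrm1 and Rrm2, the replication genes that fell most with LPS, held no E2F letters. Whether the letters go with the response was not tested. Capitals mark the letters found for any of the 3 elements, on either strand, so CHR also appears as TTCAAA and the CCAAT box as ATTGG.
Kif11 promoter (chr19:37376232-37376381, plus strand): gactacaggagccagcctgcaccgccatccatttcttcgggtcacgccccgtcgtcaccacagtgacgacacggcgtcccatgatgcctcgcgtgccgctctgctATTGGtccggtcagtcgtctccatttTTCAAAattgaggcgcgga
Top2a promoter (chr11:99024190-99024339, minus strand): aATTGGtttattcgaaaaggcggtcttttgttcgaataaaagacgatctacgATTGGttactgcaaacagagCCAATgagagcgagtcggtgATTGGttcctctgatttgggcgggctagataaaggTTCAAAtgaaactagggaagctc
Mcm5 promoter (chr8:75109359-75109508, plus strand): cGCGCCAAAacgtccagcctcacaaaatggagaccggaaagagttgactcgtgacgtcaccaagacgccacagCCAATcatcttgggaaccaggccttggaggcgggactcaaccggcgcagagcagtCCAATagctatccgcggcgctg
Mcm6 promoter (chr1:128359706-128359855, minus strand): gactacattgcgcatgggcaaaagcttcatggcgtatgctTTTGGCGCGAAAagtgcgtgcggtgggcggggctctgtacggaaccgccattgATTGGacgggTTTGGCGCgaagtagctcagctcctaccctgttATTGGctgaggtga
The CHR letters end 14 bases before the start in Kif11 and 18 bases before it in Top2a. In Mcm6 the capitals from -110 to -99 hold 2 overlapping E2F matches on opposite strands, and the capitals at the left end of Mcm5 are an E2F match that overlaps a second one just outside the stretch shown.

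Array medians lay between 6.78 and 6.93, and dendritic cell markers were measured for 11 of 12 genes, of which 1 stayed below the filter level on every array. Of 10 tested dendritic cell markers, salt raised 1 and lowered 1 without LPS, and raised 2 and lowered 2 with it. Of all tested genes, salt lowered 23.7% and raised 20.6% without LPS, and lowered 21.8% and raised 16.8% with it. Markers of other cells moved with the salt. Of 8 tested macrophage and monocyte markers 6 fell with salt with LPS and 0 rose, and 6 fell and 1 rose without LPS. Their summed level on a linear scale was 18501 to 20166 with LPS at 450 mOsm, 28095 to 30968 with LPS at 290 mOsm, 25162 to 26690 at 450 mOsm and 28805 to 30649 at 290 mOsm. Of 8 mast cell and basophil markers 4 stayed below the filter level on every array, and of the 4 tested 2 fell with salt with LPS and 4 without it. Their summed level was 1336 to 1559 with LPS at 450 mOsm, 1930 to 3092 with LPS at 290 mOsm, 486 to 537 at 450 mOsm and 824 to 1300 at 290 mOsm. All 11 neutrophil markers fell with salt without LPS, 10 fell with salt with LPS, and their summed level was 14473 to 15385 with LPS at 450 mOsm, 35737 to 44387 with LPS at 290 mOsm, 4942 to 5769 at 450 mOsm and 26690 to 35033 at 290 mOsm. Of 9 tested markers of myeloid progenitors and granulocyte precursors, cells that divide in such cultures, 6 fell with salt without LPS and 0 rose. With LPS, 5 of the 9 fell with salt and 1 rose. The summed level of the progenitor list was 1071 to 1125 with LPS at 450 mOsm, 1376 to 1549 with LPS at 290 mOsm, 885 to 1038 at 450 mOsm and 1230 to 1449 at 290 mOsm, and 1 of its 11 markers stayed below the filter level on every array. A summed level follows its brightest probe sets, so it is no measure of the number of cells. In the mast cell and basophil list Hdc averaged log2 10.02 with LPS at 450 mOsm, 10.35 with LPS at 290 mOsm, 6.57 at 450 mOsm and 7.27 at 290 mOsm. Among the neutrophil markers Lcn2 averaged 13.41, 13.56, 7.96 and 12.27 in that order. In RNA of whole cultures, fewer cells of a type and less RNA per cell cannot be told apart, and the part of these cells in the results below was not tested.

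The mean level of the mitosis genes was lowest where LPS and salt were combined, while that of the replication genes was about as low with LPS alone. The mean log2 level of the 21 measured mitosis genes was 6.79, 6.91, 6.73 and 6.79 on the 4 arrays at 450 mOsm with LPS, 7.11, 7.14, 6.98 and 7.14 with LPS at 290 mOsm, 8.04, 7.97, 7.67 and 7.68 at 450 mOsm and 7.87, 7.62, 7.64 and 7.62 at 290 mOsm. All arrays with LPS lay below all arrays without it, the arrays at 450 mOsm with LPS lay lowest, and the groups without LPS overlapped. For the 12 replication genes the mean was 7.76, 7.77, 7.69 and 7.76 with LPS at 450 mOsm, 7.73, 7.68, 7.60 and 7.69 with LPS at 290 mOsm, 8.19, 8.22, 8.04 and 8.14 at 450 mOsm and 8.17, 8.01, 8.03 and 8.02 at 290 mOsm. LPS arrays again lay below the others, but with LPS the groups of different osmolarity overlapped. The mean of the replication genes minus that of the mitosis genes averaged 0.94 ± 0.05 with LPS at 450 mOsm, 0.58 ± 0.04 with LPS at 290 mOsm, 0.31 ± 0.13 at 450 mOsm and 0.37 ± 0.05 at 290 mOsm (SD, n = 4 each). These means describe genes chosen with results of these arrays known and were not tested.

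**Figure D2:**
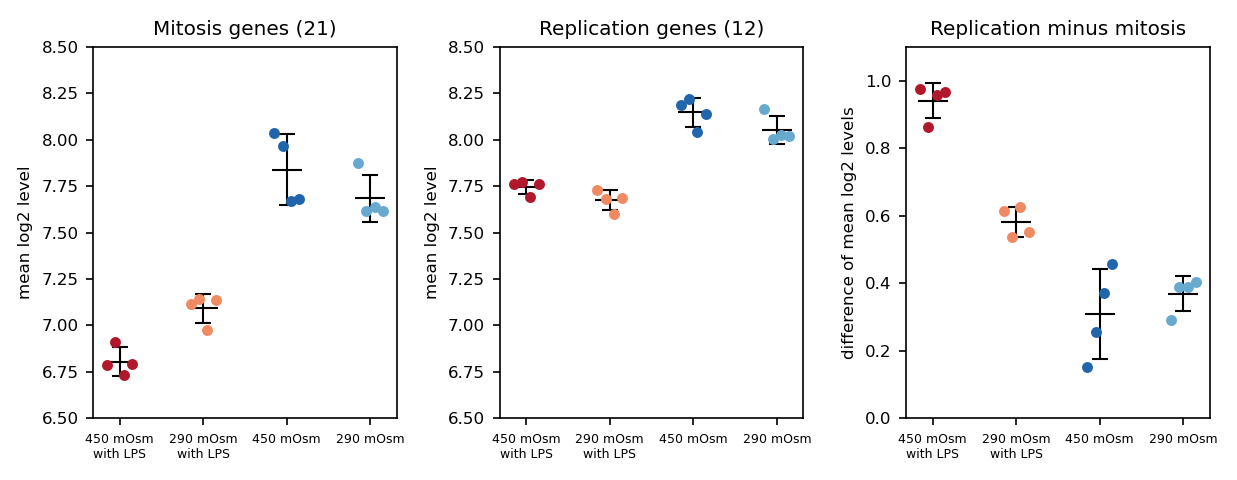
Mean log2 level per array of the 21 mitosis genes, of the 12 replication genes, and the replication mean minus the mitosis mean, by group; each point is 1 array (1 mouse), and bars are the mean ± SD of 4 arrays. The difference averaged 0.94 with LPS at 450 mOsm, 0.58 with LPS at 290 mOsm, 0.31 at 450 mOsm and 0.37 at 290 mOsm.

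Dim values limit what these means show for mitosis. At 450 mOsm with LPS, 13 of the 21 mitosis genes had a group mean below the filter level of 6.83, as did 10 with LPS at 290 mOsm, 1 at 450 mOsm and 2 at 290 mOsm, against 2 of 12 replication genes in each group. RMA compresses dim values, so a fall into that range can be understated. Kif20a, Bub1, Bub1b, Cdc20, Birc5 and Prc1 passed the filter with no LPS array above it, so the filter favours genes that fall. Counts over all measured genes, fitted without the filter, are therefore given as well for these genes and for the lists of other mitosis and replication genes.

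**Figure D3:**
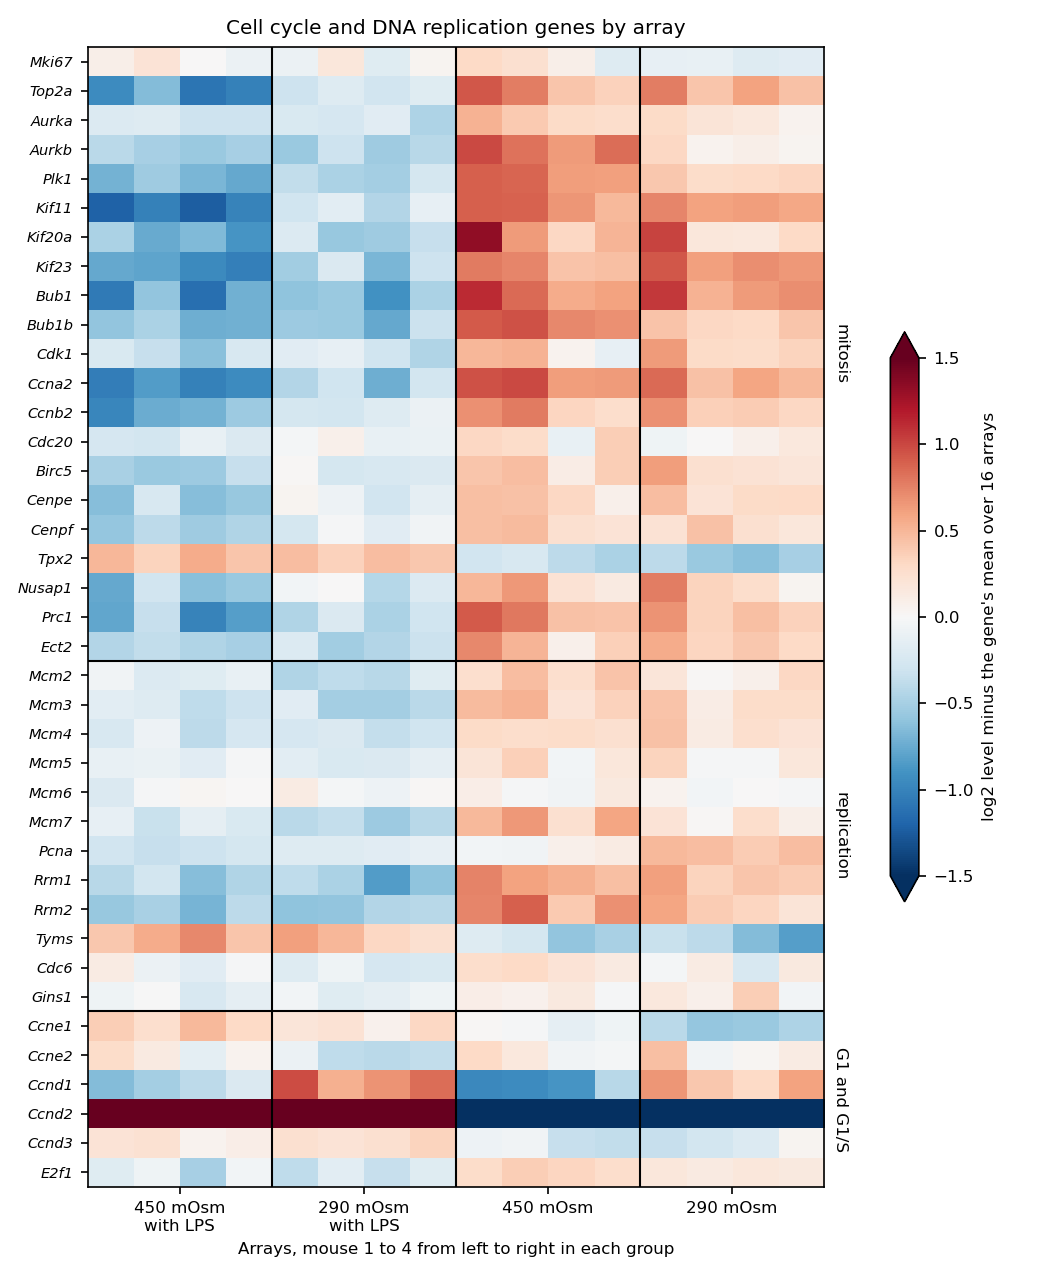
Log2 level of the 39 measured genes on each of the 16 arrays (columns, mice 1 to 4 in each group) minus the mean of the gene over all arrays; rows are genes by class, and the colour scale stops at -1.5 and 1.5, which Ccnd2 exceeds. Most mitosis genes were lowest at 450 mOsm with LPS, and Tpx2, Tyms, Ccne1 and Ccnd2 ran the other way with LPS.

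LPS at 290 mOsm lowered most genes of both sets. Of 20 tested mitosis genes 17 fell and 1 rose, where 47.1% of all tested genes were called lower and 26.4% higher, and their median log2 change was -0.69 against -0.11 over all tested genes. Of 10 tested replication genes 8 fell and 1 rose, with a median of -0.56. Fitted without the filter, 18 of 21 mitosis genes and 9 of 12 replication genes fell and 1 of each rose, where 27.0% of all genes were called lower and 18.4% higher. The largest falls among the mitosis genes were those of Bub1, a spindle checkpoint kinase (log2 -1.36 ± 0.14), of Kif23, a kinesin of the dividing cell's central spindle (-1.16 ± 0.11), and of Ccna2, the cyclin of S phase and of entry into mitosis (-1.03 ± 0.11). The checkpoint gene Cdc20, an activator of the anaphase-promoting complex, was not called (log2 -0.09 ± 0.09, adjusted p = 0.355). All 18 calls of mitosis genes and 8 of the 9 calls of replication genes held in each of the 31 alternatives in which the gene was tested. The exception was Mcm5, whose fall (log2 -0.30 ± 0.08) was not called after quantile normalization (adjusted p = 0.0794) or cyclic loess (adjusted p = 0.102).

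LPS at 450 mOsm gave a larger median fall in the mitosis genes. Of the 20 tested, 18 fell and 1 rose, where 45.3% of all tested genes were called lower and 26.4% higher, and the median was -1.29 against -0.09 over all tested genes. Of the 10 replication genes 8 fell and 1 rose, with a median of -0.49. Without the filter 19 of 21 mitosis genes and 9 of 12 replication genes fell and 1 of each rose, where 25.7% of all genes were called lower and 16.3% higher. Kif11 fell most (log2 -1.85 ± 0.09), followed by Ccna2 (-1.76 ± 0.11), Bub1 (-1.66 ± 0.14), Top2a (-1.54 ± 0.12) and Kif23 (-1.49 ± 0.11). Cdc20 was called here (log2 -0.42 ± 0.09, adjusted p = 0.000209). The 19 calls of mitosis genes held in each alternative in which the gene was tested, and among the 9 of replication genes that of Mcm5 did not (adjusted p = 0.107 after quantile normalization and 0.156 after cyclic loess).

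Whether the response to LPS differed between the osmolarities was tested as the change at 450 mOsm minus the change at 290 mOsm. Of 20 tested mitosis genes 9 had a lower difference and 0 a higher one, where 10.4% of all tested genes were called lower and 10.7% higher. The median difference was -0.41 over the mitosis genes and 0.00 over both the replication genes and all tested genes. Of 10 tested replication genes 1 was called, Pcna, and in the direction of a smaller fall at 450 mOsm. Without the filter 8 of 21 mitosis genes had a lower difference and 1 of 12 replication genes a higher one, where 4.86% of all genes were called lower and 4.80% higher.

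Kif11, the kinesin that pushes the poles of the spindle apart, had the largest difference. Its level was 5.88, 6.08, 5.85 and 6.09 with LPS at 450 mOsm, 6.79, 6.92, 6.65 and 6.96 with LPS at 290 mOsm, 7.99, 7.98, 7.75 and 7.58 at 450 mOsm and 7.83, 7.70, 7.72 and 7.66 at 290 mOsm. The arrays at 450 mOsm with LPS lay below all others and under the filter level, those at 290 mOsm with LPS came next, and the groups without LPS overlapped. The fall with LPS was 3.60-fold at 450 mOsm and 1.86-fold at 290 mOsm, a difference of log2 -0.95 ± 0.13 (95% interval -1.22 to -0.68, limma adjusted p = 3.52e-05), lower in 4 of 4 mice.

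Top2a encodes the topoisomerase that untangles the copied DNA. It stood at 7.01, 7.29, 6.85 and 6.93 with LPS at 450 mOsm, 7.64, 7.76, 7.66 and 7.76 with LPS at 290 mOsm, 8.88, 8.72, 8.37 and 8.30 at 450 mOsm and 8.71, 8.36, 8.55 and 8.38 at 290 mOsm. As for Kif11, the groups with LPS were apart from each other and those without LPS were not. The difference was log2 -0.75 ± 0.17 (limma adjusted p = 0.00315). A second, dimmer probe set of Top2a, with group means of 4.80 to 5.82, lay below the filter level and was not used. On it LPS changed Top2a by 0.02 at 450 mOsm and -0.86 at 290 mOsm, and salt without LPS changed it by -1.03. With both probe sets averaged, the difference between the LPS responses was 0.067 (limma adjusted p = 0.868), so the call for Top2a rests on the brighter probe set, and 8 mitosis genes then had a lower difference. The fall with LPS at 450 mOsm was then -0.76 and that with salt under LPS -0.41, both still called.

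The kinases Aurkb and Plk1 reached their difference in another way. Aurkb, the kinase of the chromosomal passenger complex that corrects attachments of chromosomes, was at 7.33, 7.23, 7.17 and 7.24 with LPS at 450 mOsm, 7.17, 7.42, 7.20 and 7.31 with LPS at 290 mOsm, 8.73, 8.55, 8.38 and 8.58 at 450 mOsm and 8.04, 7.79, 7.83 and 7.78 at 290 mOsm. With LPS the groups overlapped, and without LPS each array at 450 mOsm lay above those at 290 mOsm. The difference of log2 -0.73 ± 0.11 (adjusted p = 8.94e-05, limma) sits beside a higher level without LPS, where salt alone raised Aurkb by 0.70 ± 0.08 and the change with salt under LPS was -0.03 ± 0.08 (adjusted p = 0.768). Plk1, the polo kinase of entry into and exit from mitosis, was at 6.92, 7.10, 6.94 and 6.85 with LPS at 450 mOsm, 7.26, 7.14, 7.11 and 7.36 with LPS at 290 mOsm, 8.52, 8.49, 8.25 and 8.24 at 450 mOsm and 8.02, 7.90, 7.92 and 7.95 at 290 mOsm. Here the groups of different osmolarity were apart both with and without LPS, in opposite directions, and the difference was log2 -0.70 ± 0.11 (adjusted p = 0.000111, limma).

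Among the cyclins and checkpoint genes, Ccna2 was at 6.73, 6.93, 6.76 and 6.81 with LPS at 450 mOsm, 7.32, 7.46, 7.03 and 7.49 with LPS at 290 mOsm, 8.72, 8.75, 8.39 and 8.40 at 450 mOsm and 8.62, 8.20, 8.35 and 8.25 at 290 mOsm. The arrays at 450 mOsm with LPS were the lowest and the groups without LPS overlapped, which gave a difference of log2 -0.73 ± 0.15 (limma adjusted p = 0.00207). Ccnb2, a B-type cyclin that activates Cdk1, followed Ccna2 with 7.01 to 7.44 with LPS at 450 mOsm, 7.72 to 7.90 with LPS at 290 mOsm, 8.26 to 8.77 at 450 mOsm and 8.30 to 8.68 at 290 mOsm. Its difference was log2 -0.62 ± 0.16 (limma adjusted p = 0.00908), which was no longer called without replicate 2 (adjusted p = 0.0772). Bub1b, a spindle checkpoint protein, ranged over 6.39 to 6.65 with LPS at 450 mOsm, 6.35 to 6.81 with LPS at 290 mOsm, 7.81 to 8.08 at 450 mOsm and 7.42 to 7.56 at 290 mOsm. Like Aurkb it overlapped between the groups with LPS and was higher in each array at 450 mOsm without LPS, with a difference of log2 -0.54 ± 0.12 (limma adjusted p = 0.00400). The partner kinase Cdk1 showed no such difference: it fell with LPS by log2 -0.60 ± 0.13 at 450 mOsm and -0.64 ± 0.13 at 290 mOsm, and the 95% interval of the difference ran from -0.35 to 0.44.

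The differences of 2 more called genes were less stable. For Cenpe, a kinesin that carries chromosomes to the spindle's middle, it was log2 -0.41 ± 0.14 (limma adjusted p = 0.0420), called in 4 of 16 fits that each left out 1 array, with an adjusted p of up to 0.175 over the alternatives. For Prc1, which bundles microtubules of the central spindle, it was -0.58 ± 0.18 (adjusted p = 0.0329, limma), called in 7 of 16 such fits, with an adjusted p of up to 0.111. Neither was called without the filter (adjusted p = 0.0713 for Cenpe and 0.0521 for Prc1). By contrast Kif11, Aurkb, Plk1, Bub1b and Ccna2 were called in each alternative in which they were tested, with adjusted p of at most 0.0311. When the mouse entered the fit as a replicate block, Kif20a, another kinesin of the central spindle (log2 -0.57 ± 0.27, adjusted p = 0.160 unpaired and 0.0169 with the block), and Birc5, the survivin subunit of the passenger complex (-0.33 ± 0.14, adjusted p = 0.105 and 0.0496), were called as well. Kif20a was also called without the 290 mOsm replicate 1 array (adjusted p = 0.0273), on which it was highest of its group.

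**Figure D4:**
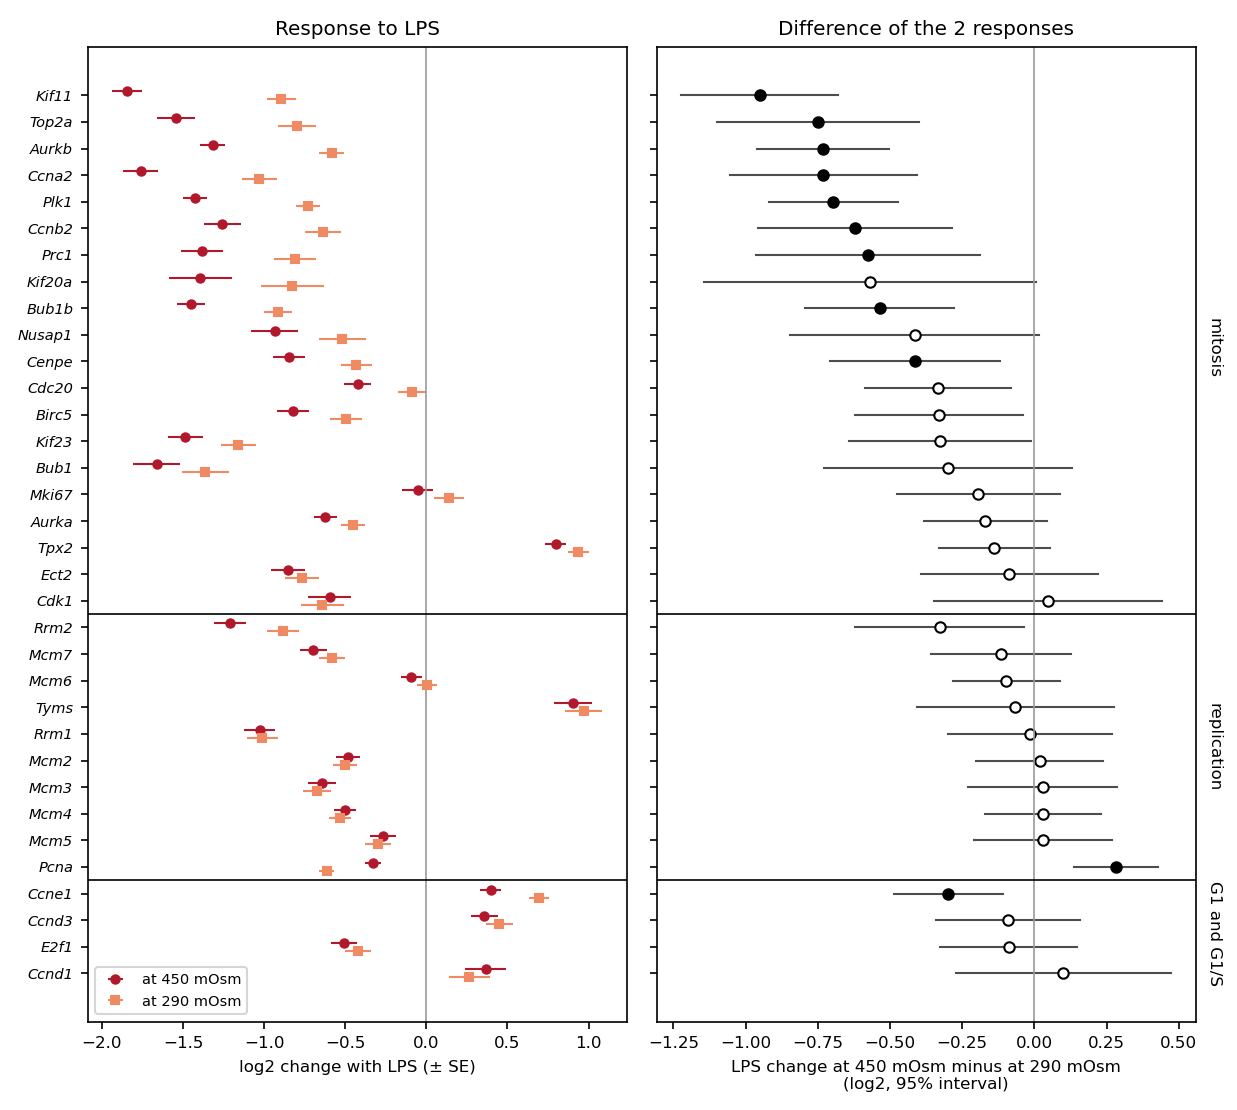
Left, log2 change with LPS (horizontal axis, ± SE) at 450 mOsm and at 290 mOsm for the tested genes, and right, the difference of the 2 changes with its 95% interval, where filled points were called at an adjusted p under 0.05; Ccnd2, whose changes are near 5, is left out of the plot. Kif11 has the largest difference at -0.95, and among the replication genes only the point of Pcna, at 0.28, is filled.

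The uncalled mitosis genes were not all of 1 kind. The aurora A kinase gene Aurka fell with LPS by log2 -0.62 ± 0.07 at 450 mOsm and -0.45 ± 0.07 at 290 mOsm, with a difference of -0.17 ± 0.10 (adjusted p = 0.265). Ect2, which starts the contractile ring of cytokinesis, fell by -0.85 ± 0.10 and -0.77 ± 0.10 at those osmolarities, and the interval of its difference was -0.39 to 0.22. The spindle protein gene Nusap1 differed by -0.41 ± 0.21 (adjusted p = 0.174), Kif23 by -0.33 ± 0.15 (0.137) and Cdc20 by -0.33 ± 0.12 (0.0564). Cdc20 was called with the mouse as a random replicate block (adjusted p = 0.0480), after quantile normalization (0.0365), with array weights (0.0153), and without replicate 3 (0.00225), the 450 mOsm replicate 3 array (0.00122) or the 290 mOsm replicate 4 array (0.0458). Nusap1 was called with array weights (0.0409) and without the 290 mOsm replicate 1 array (0.0426). Kif23 was called after quantile normalization (0.0486) and with array weights (0.0414). For Nusap1 and Kif23 the 95% intervals, -0.85 to 0.02 and -0.64 to -0.01, hold a difference of the size seen in Ccnb2. The kinetochore gene Cenpf, below the filter with levels of 5.78 to 5.97 with LPS at 450 mOsm, 6.09 to 6.35 with LPS at 290 mOsm, 6.57 to 6.83 at 450 mOsm and 6.53 to 6.80 at 290 mOsm, differed by -0.44 ± 0.11 in the fit without the filter (adjusted p = 0.0136).

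Mki67 and Tpx2 did not follow the other mitosis genes under LPS. Mki67, whose protein coats mitotic chromosomes and serves as a marker of dividing cells, was at 10.01, 10.14, 9.94 and 9.84 with LPS at 450 mOsm, 9.84, 10.10, 9.75 and 9.97 with LPS at 290 mOsm, 10.23, 10.17, 10.02 and 9.73 at 450 mOsm and 9.80, 9.82, 9.73 and 9.75 at 290 mOsm. The groups overlapped, and LPS changed it by log2 -0.05 ± 0.09 at 450 mOsm (95% interval -0.25 to 0.14) and 0.14 ± 0.09 at 290 mOsm (-0.06 to 0.34). After cyclic loess the change at 290 mOsm was called as a rise (0.28, adjusted p = 0.00917). Tpx2, a spindle protein that activates aurora A, was at 8.97, 8.81, 9.03 and 8.88 with LPS at 450 mOsm, 8.93, 8.82, 8.93 and 8.87 with LPS at 290 mOsm, 8.19, 8.24, 8.09 and 8.003 at 450 mOsm and 8.08, 7.91, 7.84 and 7.98 at 290 mOsm. Each LPS array lay above each array without LPS, and the rise was 0.80 ± 0.06 at 450 mOsm and 0.94 ± 0.06 at 290 mOsm (limma adjusted p = 2.76e-09 and 3.08e-10). Aurka, the kinase that Tpx2 activates, fell in both comparisons.

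Most replication genes fell with LPS at both osmolarities, with Tyms and Mcm6 as exceptions, and Pcna was the 1 called for a difference between the responses. Rrm1 and Rrm2, the subunits of the ribonucleotide reductase that makes DNA building blocks, fell most. Rrm1 stood at 7.96, 8.10, 7.74 and 7.93 with LPS at 450 mOsm, 7.99, 7.90, 7.54 and 7.78 with LPS at 290 mOsm, 9.13, 8.98, 8.91 and 8.83 at 450 mOsm and 8.99, 8.71, 8.80 and 8.76 at 290 mOsm. All LPS arrays lay below all others, the osmolarities overlapped, and the interval of the difference between the responses was -0.30 to 0.27 around log2 -0.01. Rrm2 fell by -1.21 ± 0.10 at 450 mOsm and -0.88 ± 0.10 at 290 mOsm, with a difference of -0.33 ± 0.14 (limma adjusted p = 0.109). This difference was called with array weights (adjusted p = 0.0242), and without the 290 mOsm replicate 1 array (0.0448) or the 450 mOsm replicate 3 array (0.0204).

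Of the 6 subunits of the Mcm2-7 helicase, which unwinds DNA at the fork, 5 fell and Mcm6 was not called. Mcm3 fell by log2 -0.65 ± 0.09 at 450 mOsm and -0.67 ± 0.09 at 290 mOsm, Mcm7 by -0.70 ± 0.08 and -0.58 ± 0.08, Mcm4 by -0.50 ± 0.07 and -0.53 ± 0.07 and Mcm2 by -0.49 ± 0.07 and -0.50 ± 0.07. Mcm5 fell least, by -0.27 ± 0.08 and -0.30 ± 0.08. Mcm6 was at 7.93, 8.12, 8.17 and 8.15 with LPS at 450 mOsm, 8.26, 8.11, 8.06 and 8.15 with LPS at 290 mOsm, 8.24, 8.12, 8.09 and 8.28 at 450 mOsm and 8.19, 8.10, 8.14 and 8.12 at 290 mOsm. Its groups overlapped, and its change of 0.01 ± 0.06 with LPS at 290 mOsm became a called rise after quantile normalization (0.14, adjusted p = 0.0356) and cyclic loess (0.18, adjusted p = 0.0115). The interval of the difference between the responses was -0.20 to 0.24 for Mcm2, -0.23 to 0.29 for Mcm3, -0.17 to 0.23 for Mcm4, -0.21 to 0.27 for Mcm5, -0.28 to 0.09 for Mcm6 and -0.36 to 0.13 for Mcm7. A difference as large as that of Kif11 lies outside all 6. For Mcm7 the difference of -0.12 ± 0.11 became -0.30 and a call without replicate 3 (adjusted p = 0.0493). Without LPS none of the 6 was called lower with salt.

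Pcna, the clamp that holds the DNA polymerase on its template, was the replication gene whose LPS response differed. Its level was 11.45, 11.39, 11.42 and 11.48 with LPS at 450 mOsm, 11.54, 11.54, 11.57 and 11.61 with LPS at 290 mOsm, 11.70, 11.68, 11.81 and 11.86 at 450 mOsm and 12.22, 12.20, 12.11 and 12.20 at 290 mOsm. The groups did not overlap, and they stood in that order from low to high. It fell with LPS by log2 -0.33 ± 0.05 at 450 mOsm and -0.62 ± 0.05 at 290 mOsm, and the difference of 0.28 ± 0.07 was called (limma adjusted p = 0.00604), though not without replicate 1 (0.0842) or without replicate 2 (0.0646). A second probe set annotated to Pcna gave group means within 0.01 of the first, and the pair was counted as 1 measurement.

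Tyms, the thymidylate synthase, rose with LPS. It was at 8.15, 8.30, 8.47 and 8.16 with LPS at 450 mOsm, 8.36, 8.25, 8.06 and 7.99 with LPS at 290 mOsm, 7.55, 7.49, 7.16 and 7.26 at 450 mOsm and 7.42, 7.35, 7.09 and 6.92 at 290 mOsm. The LPS arrays all lay above the others, with a rise of log2 0.90 ± 0.11 at 450 mOsm and 0.97 ± 0.11 at 290 mOsm (limma adjusted p = 1.15e-06 and 4.72e-07). The replication-licensing gene Cdc6 and the fork component gene Gins1 were below the filter: Cdc6 ranged from 6.27 to 6.82 and Gins1 from 5.89 to 6.51 over the 16 arrays. In the fit without the filter Cdc6 fell with LPS at 450 mOsm (-0.27 ± 0.08, adjusted p = 0.0113) and Gins1 at 290 mOsm (-0.25 ± 0.08, adjusted p = 0.0128).

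Salt without LPS raised some genes of both sets and lowered 1 replication gene. Of 20 tested mitosis genes 6 rose and 0 fell, where 20.6% of all tested genes were called higher and 23.7% lower, and of 10 replication genes 3 rose and 1 fell, shares of rises not far from that of all genes. After median centring 1335 of all genes were called higher and 3047 lower, against 2104 and 2426 on the deposited scale. The medians of both sets were 0.13 each, against 0.00 over all tested genes. Aurkb rose 1.63-fold (log2 0.70 ± 0.08), Bub1b 1.37-fold (0.45 ± 0.09) and Plk1 1.35-fold (0.43 ± 0.07), each higher in 4 of 4 mice and called in each alternative in which it was tested. The calls of Mki67 (log2 0.26 ± 0.09), Aurka (0.19 ± 0.07) and Tpx2 (0.17 ± 0.06) held in 11, 11 and 11 of the 16 fits that left out 1 array. Kif20a was called as higher only with the replicate block (0.28 ± 0.19 unpaired, adjusted p = 0.0494 with the block), without replicate 1 (0.0293) or without the 290 mOsm replicate 1 array (0.0343). The count of rises fell to 3 without replicate 2, without the 450 mOsm replicate 1 or 2 array, and without the 290 mOsm replicate 3 or 4 array. Without the filter 4 of 21 mitosis genes and 3 of 12 replication genes rose and 0 and 1 fell, where 15.8% of all genes were called higher and 12.4% lower.

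Among the replication genes, Pcna fell with salt 1.34-fold (log2 -0.42 ± 0.05, limma adjusted p = 2.63e-06) and Mcm7 rose by 0.35 ± 0.08 (0.00248), and both held in each alternative. The rises of Rrm2 (0.31 ± 0.10) and Mcm2 (0.20 ± 0.07) held in 14 and 11 of 16 fits without 1 array, and without the 450 mOsm replicate 2 array neither was called (adjusted p = 0.0717 for Rrm2 and 0.114 for Mcm2), which left 1 rise. Progenitor markers fell in this comparison, as given above, and the part of their cells in these values was not tested.

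Under LPS, salt lowered mitosis genes. Of 20 tested, 10 fell and 0 rose, where 21.8% of all tested genes were called lower and 16.8% higher, with a median of -0.27 against 0.00. The same count of 10 fell without the filter, of 21, where 10.8% of all genes were called lower and 9.87% higher. Kif11 fell 1.81-fold (log2 -0.86 ± 0.09), Top2a 1.61-fold (-0.68 ± 0.12), Ccnb2 1.46-fold (-0.54 ± 0.11), Ccna2 1.43-fold (-0.52 ± 0.11) and Kif23 1.37-fold (-0.45 ± 0.11), each lower in 4 of 4 mice. These 5 and Cenpe (-0.41 ± 0.10) were called in each alternative in which they were tested. The fall of Plk1 (-0.27 ± 0.07) was lost without replicate 1 (adjusted p = 0.0519) or replicate 4 (0.0900), and that of Birc5 (-0.31 ± 0.10) without replicate 2 (0.0657), the 290 mOsm with LPS replicate 1 array (0.0733) or the 450 mOsm with LPS replicate 3 array (0.0510). Those of Prc1 (-0.38 ± 0.13) and Nusap1 (-0.39 ± 0.15) held in 11 and 10 of 16 fits without 1 array.

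Of all tested genes, 16.8% were called higher and 21.8% lower with salt under LPS. For the replication genes under LPS, salt gave 2 rises, 1 fall and 7 genes not called of 10. The rises were those of Mcm7 (log2 0.23 ± 0.08) and Mcm2 (0.22 ± 0.07), and the fall that of Pcna (-0.14 ± 0.05). None of the 3 held throughout: leaving out single arrays gave 0 to 2 rises and 0 to 1 falls. Without the filter there was 1 rise and there were 0 falls, where 9.87% of all genes were called higher and 10.8% lower. Mcm7 was called in 11 of the 16 fits without 1 array, Mcm2 in 11 and Pcna in 11. Dim genes are unequally spread between the sets in these groups, as given above, and the part of this in the contrast of mitosis with replication genes was not tested.

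The genes of G1 and of entry into S phase each had a pattern of their own. LPS at 450 mOsm raised 4 of the 5 tested and lowered 1, where 26.4% of all tested genes were called higher and 45.3% lower. LPS at 290 mOsm raised 3 and lowered 1, where 26.4% were called higher and 47.1% lower. Without the filter, of 6 genes, LPS raised 4 and lowered 1 at 450 mOsm and raised 3 and lowered 2 at 290 mOsm. Ccnd2, a D-type cyclin, was at 12.98, 13.06, 12.74 and 12.88 with LPS at 450 mOsm, 12.70, 12.49, 12.33 and 12.56 with LPS at 290 mOsm, 8.02, 8.21, 8.004 and 8.20 at 450 mOsm and 7.65, 7.42, 7.38 and 7.57 at 290 mOsm. The groups did not overlap. LPS raised it 28.0-fold at 450 mOsm (log2 4.81 ± 0.09) and 32.3-fold at 290 mOsm (5.02 ± 0.09), and salt raised it by 0.40 ± 0.09 with LPS and 0.60 ± 0.09 without. The difference between the LPS responses was -0.21 ± 0.12 and was not called (adjusted p = 0.261).

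Ccnd1, another D-type cyclin, differed mainly with salt. It stood at 7.47, 7.60, 7.73 and 7.89 with LPS at 450 mOsm, 9.09, 8.64, 8.78 and 8.95 with LPS at 290 mOsm, 7.15, 7.17, 7.22 and 7.69 at 450 mOsm and 8.78, 8.51, 8.41 and 8.72 at 290 mOsm. All arrays at 450 mOsm lay below all arrays at 290 mOsm. Salt lowered it 2.29-fold with LPS (log2 -1.20 ± 0.13) and 2.46-fold without (-1.30 ± 0.13), lower in 4 of 4 mice in both. With LPS it rose at 450 mOsm (0.36 ± 0.13, adjusted p = 0.0145), a call lost without the 450 mOsm with LPS replicate 4 array (0.0575), without replicate 2 (0.0548) or without replicate 3 (0.0840). At 290 mOsm its change was 0.26 ± 0.13 (adjusted p = 0.0669, and 0.0262 with the replicate block). Leaving out the 290 mOsm replicate 1 array (0.0422), the 290 mOsm with LPS replicate 2 array (0.0283) or the 450 mOsm replicate 4 array (0.0285) also made this a call.

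Ccnd3, the remaining D-type cyclin, rose with LPS by log2 0.36 ± 0.08 at 450 mOsm and 0.45 ± 0.08 at 290 mOsm, and its changes with salt were -0.10 ± 0.08 with LPS and -0.01 ± 0.08 without, neither called. Ccne1, cyclin E1, which starts S phase with Cdk2, was at 8.54, 8.43, 8.66 and 8.47 with LPS at 450 mOsm, 8.35, 8.40, 8.24 and 8.49 with LPS at 290 mOsm, 8.20, 8.16, 8.04 and 8.11 at 450 mOsm and 7.78, 7.59, 7.62 and 7.72 at 290 mOsm. The group at 290 mOsm lay lowest, below every array at 450 mOsm, and the groups with LPS overlapped. Ccne1 rose with LPS by 0.40 ± 0.06 at 450 mOsm and 0.69 ± 0.06 at 290 mOsm, and with salt by 0.45 ± 0.06 without LPS. The difference of -0.30 ± 0.09 between its LPS responses (limma adjusted p = 0.0238) was called in 13 of 16 fits without 1 array and not without the filter (0.0522). It was lost without replicate 1 (0.0689), replicate 2 (0.234) or replicate 4 (0.124). The arrays whose removal ended the call were 290 mOsm replicate 2 (0.0530), 290 mOsm with LPS replicate 4 (0.0546) and 450 mOsm with LPS replicate 2 (0.0533).

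E2f1, an E2F factor that activates replication genes, fell with LPS by -0.51 ± 0.08 at 450 mOsm and -0.42 ± 0.08 at 290 mOsm. Its levels were 7.55, 7.66, 7.24 and 7.69 with LPS at 450 mOsm, 7.35, 7.58, 7.39 and 7.55 with LPS at 290 mOsm, 8.005, 8.10, 8.06 and 8.002 at 450 mOsm and 7.90, 7.86, 7.91 and 7.88 at 290 mOsm. All LPS arrays were below all others. Without LPS the change with salt was 0.15 ± 0.08 (adjusted p = 0.124), a call when the 450 mOsm with LPS replicate 3 array was left out (0.0362). Ccne2, below the filter, ranged from 5.95 to 6.37 with LPS at 450 mOsm, 5.70 to 6.01 with LPS at 290 mOsm, 6.05 to 6.39 at 450 mOsm and 6.04 to 6.55 at 290 mOsm, and in the fit without the filter it fell with LPS at 290 mOsm by -0.45 ± 0.11 (adjusted p = 0.00197).

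**Figure D5:**
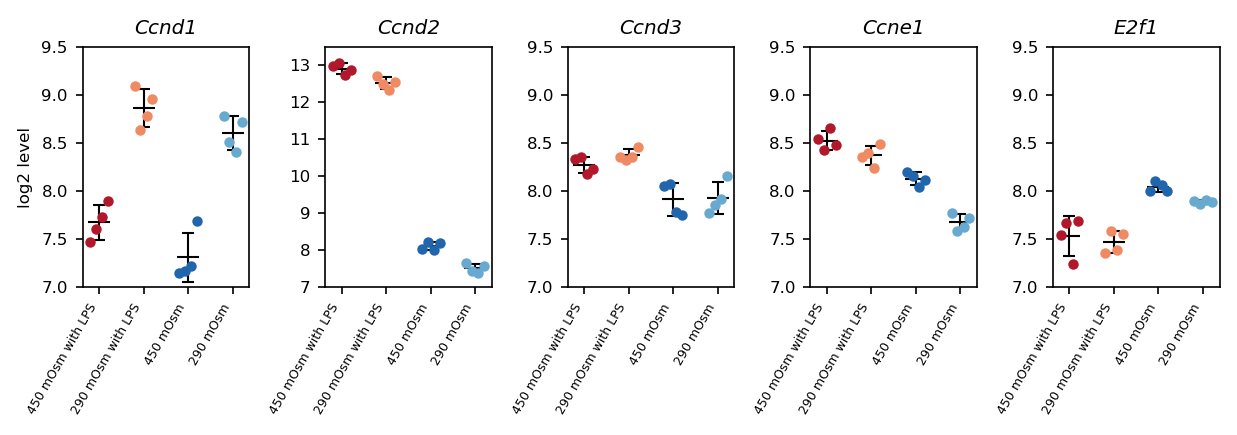
Log2 level on each array of the tested G1 and G1/S genes Ccnd1, Ccnd2, Ccnd3, Ccne1 and E2f1 by group, with the mean ± SD of 4 arrays; the vertical axis of Ccnd2 spans a wider range than the others. Ccnd2 is high in both LPS groups, and Ccnd1 is low in both groups at 450 mOsm.

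Other genes of the same steps were counted from lists drawn up by function. Of 52 other mitosis genes 30 were tested, and LPS lowered 28 of these and raised 2 at 450 mOsm, and lowered 27 and raised 2 at 290 mOsm. Fitted without the filter, of 48 measured, 44 fell and 2 rose at 450 mOsm and 41 fell and 2 rose at 290 mOsm. The fall was deepest for Anln, a scaffold of the contractile ring (log2 -2.04 ± 0.11 at 450 mOsm and -1.32 ± 0.11 at 290 mOsm). Ncapd2, a condensin subunit, fell by -1.16 ± 0.07 and -0.74 ± 0.07, and Pttg1, the securin that holds back separase, rose by 1.78 ± 0.10 and 1.95 ± 0.10. The LPS response differed between the osmolarities for 14 of the 30, all in the direction of a larger fall or smaller rise at 450 mOsm and with 0 in the other, for example Anln (-0.73 ± 0.15), the microtubule-depolymerising kinesin Kif2c (-0.67 ± 0.15), Ncapd2 (-0.42 ± 0.10) and Kif18b (-0.46 ± 0.11). Salt raised 12 and lowered 0 without LPS, and lowered 11 and raised 0 with it. Fitted without the filter, 14 of the 48 had a lower difference between the LPS responses and 0 a higher one. In that fit salt raised 12 and lowered 0 without LPS, and lowered 13 and raised 0 with it. The shares of all genes called in each comparison are those given above.

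Of 42 other replication genes 30 were tested as well. LPS lowered 21 and raised 3 at 450 mOsm, and lowered 20 and raised 6 at 290 mOsm. Of all tested genes LPS lowered 45.3% and 47.1% at those osmolarities and raised 26.4% at each. Without the filter, of 40 measured, 26 fell and 3 rose at 450 mOsm and 25 fell and 5 rose at 290 mOsm. Of all genes in that fit 25.7% and 27.0% were called lower and 16.3% and 18.4% higher. The primase subunit Prim2 fell by log2 -0.90 ± 0.08 at 450 mOsm and -0.90 ± 0.08 at 290 mOsm, and Rpa1, which coats single-stranded DNA, by -0.71 ± 0.06 and -0.75 ± 0.06. Timeless, a fork protection protein, rose by 1.30 ± 0.09 and 1.26 ± 0.09. The LPS responses differed for 4 of the 30, with 2 higher and 2 lower, where 14 of 30 other mitosis genes differed. Of all tested genes 10.7% were called higher and 10.4% lower. The 4 were the licensing factor Cdt1 (0.44 ± 0.08), the polymerase alpha subunit Pola2 (0.30 ± 0.09), Rpa2 (-0.38 ± 0.10) and the helicase cofactor Cdc45 (-0.26 ± 0.09). Salt raised 9 and lowered 2 without LPS, and raised 4 and lowered 2 with it. Of all tested genes salt raised 20.6% and lowered 23.7% without LPS, and raised 16.8% and lowered 21.8% with it. Fitted without the filter, 2 of the 40 had a higher difference between the LPS responses and 2 a lower one. In that fit salt raised 11 and lowered 2 without LPS, and raised 4 and lowered 2 with it. Of all genes in it, 4.80% had a higher difference and 4.86% a lower one. Salt raised 15.8% and lowered 12.4% of all genes without LPS, and raised 9.87% and lowered 10.8% with it.

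With LPS, regulators of these programmes were called in shares near or below those of all genes. Of 18 tested E2F, pocket protein and DREAM, MYBL2 or FOXM1 genes, LPS raised 4 and lowered 9 at 450 mOsm, and raised 2 and lowered 7 at 290 mOsm, where 26.4% of all tested genes were called higher at each osmolarity and 45.3% and 47.1% lower. The pocket protein gene Rbl1, whose p107 protein is a repressor in DREAM, rose by log2 1.30 ± 0.06 at 450 mOsm and 1.82 ± 0.06 at 290 mOsm, and the repressor E2f5 by 1.93 ± 0.07 and 1.67 ± 0.07. The other pocket protein genes fell, Rb1 by -0.76 ± 0.09 and -0.80 ± 0.09 and Rbl2 by -0.66 ± 0.09 and -0.89 ± 0.09. The difference between the LPS responses was called lower for 3 of the 18 and higher for 0, where 10.4% of all tested genes were called lower and 10.7% higher. Without the filter it was called lower for 2 of 19. Rbl1 was 1 of the 3, with a smaller rise at 450 mOsm. A larger fall at 450 mOsm was called for the activator E2f2, with 7.07, 7.19, 7.28 and 7.22 with LPS at 450 mOsm, 7.27, 7.53, 7.19 and 7.36 with LPS at 290 mOsm, 8.57, 8.84, 8.34 and 8.51 at 450 mOsm and 7.75, 7.76, 8.01 and 8.01 at 290 mOsm (difference -0.83 ± 0.14, limma adjusted p = 0.000248). It was called too for Foxm1, the activator of mitosis genes, which fell by -0.84 ± 0.06 at 450 mOsm and -0.55 ± 0.06 at 290 mOsm (difference -0.29 ± 0.09, limma adjusted p = 0.0266). Mybl2, which encodes B-Myb, rose at 450 mOsm (0.22 ± 0.08) and was not called at 290 mOsm (-0.03 ± 0.08), and this difference was not called (0.25 ± 0.12, adjusted p = 0.141). Salt raised 6 and lowered 3 of the 18 without LPS, where 20.6% of all tested genes were called higher and 23.7% lower. With LPS, salt raised 4 and lowered 4, where 16.8% were called higher and 21.8% lower.

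Of the CDK inhibitor genes, which hold G1 kinases in check, 6 of 7 were measured, 4 were tested, and Cdkn1a is not analysed here. Cdkn2b rose with LPS by log2 1.06 ± 0.08 at 450 mOsm and 0.87 ± 0.08 at 290 mOsm, Cdkn2d by 0.46 ± 0.09 and 0.39 ± 0.09, and Cdkn1b by 0.34 ± 0.09 and 0.31 ± 0.09. The same 3 rose with salt under LPS, by 0.36 ± 0.08, 0.27 ± 0.09 and 0.23 ± 0.09 in that order, and Cdkn1c fell with salt (-0.52 ± 0.07 with LPS and -0.30 ± 0.07 without). For none of the 4 was the difference between the LPS responses called, with adjusted p of 0.162 or more. Among 7 kinase and Myc genes of G1 and S phase, LPS lowered 5 and raised 1 at 450 mOsm and lowered 6 and raised 0 at 290 mOsm. Of all tested genes LPS lowered 45.3% and raised 26.4% at 450 mOsm, and lowered 47.1% and raised 26.4% at 290 mOsm. Cdk4 fell by -1.12 ± 0.04 at 450 mOsm and -1.32 ± 0.04 at 290 mOsm, Myc by -1.37 ± 0.10 and -1.94 ± 0.10, and Cdk6 rose at 450 mOsm (0.65 ± 0.09) and was not called at 290 mOsm (-0.21 ± 0.09), with a difference of 0.85 ± 0.13 (limma adjusted p = 0.000103). Of 5 tested checkpoint kinase genes, LPS lowered 2 and raised 1 at 450 mOsm, and lowered 2 and raised 2 at 290 mOsm. Salt lowered 2 and raised 0 with LPS, where 21.8% of all tested genes were called lower and 16.8% higher. Without LPS salt lowered 2 and raised 2, where 23.7% were called lower and 20.6% higher. Chek2 fell with LPS by -1.84 ± 0.13 at 450 mOsm and -1.81 ± 0.13 at 290 mOsm. Wee1, which holds Cdk1 inactive, fell with salt by -0.61 ± 0.08 with LPS and -0.67 ± 0.08 without. Both these genes and the next list stand beside the LPS shares of all tested genes given for the kinase and Myc genes. Of 7 anti-proliferative genes, LPS lowered 5 and raised 1 at 450 mOsm, and lowered 5 and raised 2 at 290 mOsm. Sesn1 changed by -2.46 ± 0.08 and -2.84 ± 0.08.

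Within groups, mitosis genes went up and down together from mouse to mouse. Over deviations from the group means on the 16 arrays, the median Pearson correlation was 0.54 over 210 pairs of mitosis genes, 0.23 over 66 pairs of replication genes, 0.28 over 252 mixed pairs and 0.03 over pairs of all tested genes, as a description, since the genes share the arrays and the cultures. Top2a (r = 0.90), Ccna2 (0.90), Bub1 (0.86) and Prc1 (0.86) followed the mean of the other mitosis genes most closely, and Cdc20 (0.10) least. Of the replication genes Rrm1 (0.78), Mcm5 (0.67) and Mcm3 (0.67) followed the mitosis mean, Mcm2 (0.08) hardly did, and Pcna ran against it (-0.52). On the 450 mOsm arrays the mitosis mean deviated by 0.20, 0.13, -0.17 and -0.16 in replicates 1 to 4, and on the 290 mOsm arrays by 0.19, -0.07, -0.05 and -0.07. With LPS the deviations lay between -0.12 and 0.11. Of genes outside all the lists, Gsdmd (r = 0.94), Kynu (0.91), Pclaf (0.91), Gda (0.90) and Ing3 (0.90) had deviations most like the mitosis mean over the 16 arrays. Their group differences were of several kinds: with LPS at 290 mOsm Gsdmd, Kynu and Gda rose by log2 1.05, 2.30 and 0.98, and Pclaf and Ing3 fell by 0.64 and 0.49.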

How the data were processed

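Total RNA of 16 cultures was measured, 1 array each. The deposited log2 values come from RMA in the oligo package, per the submitters' processing notes. For the package version and the build the sources used here say nothing. RMA normalizes probe intensities between arrays, which can reduce a shift shared by most transcripts, and the medians of the deposited arrays still spanned 6.78 to 6.93. Depth does not apply, and the number of arrays limits the precision.

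Of 22549 probe sets 20646 have 1 annotated symbol, 551 have several and 1352 have none. Each gene is its brightest single-gene probe set by mean, kept where at least 4 arrays exceeded 6.83, which left 10236 genes. limma 3.58.1 in R 4.3.3 fitted 1 model with 4 group means (12 residual and 5.53 prior degrees of freedom), two-sided, with contrasts for salt with and without LPS, LPS at each osmolarity and their interaction, and Benjamini-Hochberg adjustment over all genes of a contrast at 0.05. Groups and mice follow the labels. Members and lists were chosen with earlier results of these data known, and the text names all members, up to 4 genes of a list by smallest adjusted p in a contrast, the CDK inhibitor and E2F, pocket protein and DREAM regulator genes, and the 5 genes outside the lists most like the mitosis mean.

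Each array carries a mouse ID in the labels, equal to its replicate number, so arrays of 1 number come from 1 mouse. The main fit held no term for the mouse and was unpaired, and the mouse entered only as a replicate block among the alternatives. Deviations correlated between arrays of a mouse with a median r of 0.0953 (24 pairs, 11 over 0.1), against -0.0351 for different mice (72 pairs). Besides a replicate block for the mouse, the alternatives were other filters and normalizations, array weights, other fits of the variance and leaving out each mouse or array, 31 in all. On simulated arrays with 200 changed genes among 10236, 82% to 96% of log2 changes of 0.5 were recovered. At least 99% of changes of 1 were recovered, and 3.45% to 8.45% of calls were false. The simulated noise was independent between genes and arrays, and more genes were called in each comparison of the data. These rates therefore need not hold for the data. Figures were drawn with matplotlib 3.10.9.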

Additional observations from a re-analysis of the deposited data

Results flagged for a closer look

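Of 156 groups of 4 arrays (39 genes in 4 groups), 6 had 1 array far from the other 3 by Dixon's test, where chance gives about 1 in 20 groups. On the 290 mOsm replicate 1 array Kif20a (7.93), Cdk1 (8.31) and Birc5 (7.43) were the highest of their group, and Birc5 (6.82) and Ccne2 (6.01) were highest on the 290 mOsm with LPS replicate 1 array. Those 5 values come from mouse 1. Ccnd1 was highest on the 450 mOsm replicate 4 array (7.69).

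The response to LPS differed between the osmolarities for 11 of 35 tested genes by limma's interaction term, given as the change at 450 mOsm minus that at 290 mOsm, where 10.4% of all tested genes were called lower and 10.7% higher. The difference was -0.95 for Kif11 (adjusted p = 3.52e-05), -0.75 for Top2a (0.00315), -0.73 for Aurkb (8.94e-05) and -0.73 for Ccna2 (0.00207). For Plk1 it was -0.70 (adjusted p = 0.000111), for Ccnb2 -0.62 (0.00908), for Prc1 -0.58 (0.0329), for Bub1b -0.54 (0.00400) and for Cenpe -0.41 (0.0420). Ccne1 had -0.30 (adjusted p = 0.0238) and Pcna, the exception in sign, 0.28 (0.00604). The direction of all 11 was shared by 4 of 4 mice.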

How the results depend on the processing

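Over the members and comparisons, 5154 values under the alternatives kept their direction and side of the threshold, 57 passed it that had not, 152 no longer did, and 2 turned their direction, both of Top2a with all its probe sets averaged: the interaction was then 0.067 (adjusted p = 0.868) and salt without LPS -0.48 (adjusted p = 0.0165). That average also gave 1 mitosis gene lower with salt without LPS and a mitosis median of -1.10 for LPS at 450 mOsm. The mouse as a fixed replicate block ended no call of a member and added 4, and as a random replicate block it ended none and added Cdc20 in the interaction (-0.33, adjusted p = 0.0480). The 4 were Kif20a (-0.57, adjusted p = 0.0169) and Birc5 (-0.33, 0.0496) in the interaction, Kif20a for salt without LPS (0.28, 0.0494) and Ccnd1 for LPS at 290 mOsm (0.26, 0.0262). Dim signals limit the mitosis genes most, since 9 of the 20 tested remained under the stricter filter at the 65th percentile. With that filter 5 fell with salt under LPS, 7 fell with LPS at each osmolarity, and 5 were lower in the interaction with a median of -0.62. Causes of the other changes were not tested.

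Salt without LPS raised 3 mitosis genes and 1335 of all genes after median centring. Leaving out mice or arrays gave 3 to 7 mitosis and 1 to 3 replication genes higher, and 1346 to 2244 of all genes higher. For salt with LPS, replication genes called higher numbered 1 without the filter, with the stricter filter, after cyclic loess and after median centring, and 0 to 2 with mice or arrays left out. Replication genes called lower numbered 0 without the filter, after quantile normalization and after cyclic loess, and 0 to 1 with mice or arrays left out. LPS at 290 mOsm raised 2 mitosis genes after cyclic loess and 2 replication genes after quantile normalization or cyclic loess. Its median change was then -0.54 for mitosis genes under both and -0.43 for replication genes under both. LPS at 450 mOsm had medians of -1.14 for mitosis and -0.36 for replication genes after cyclic loess, and of -0.41 for replication genes without the filter. In the interaction, array weights gave 1 lower replication gene and a mitosis median of -0.54. Leaving out mice or arrays gave 7 to 12 lower mitosis genes, 0 to 1 higher and 0 to 1 lower replication genes, and 658 to 1121 higher and 697 to 1149 lower of all genes. Cyclic loess moved the median of all genes by 0.13 for LPS at 290 mOsm (3857 genes higher and 3736 lower, against 2702 and 4819) and by 0.12 for LPS at 450 mOsm (3722 and 3660, against 2707 and 4641). Alternatives were summarised for the members only.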
